A study of Mus musculus with 4 samples.

Results

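The 6 genes described here encode transcription factors of blood stem and progenitor cells, namely Hhex, Meis1, Myb, Mecom, Nfe2 and Bcl11a. Their SCL-bound regions were taken from a single deposited peak list as the peaks whose summit lay nearer to an annotated start site of one of these genes than to that of any other protein-coding gene. This gave 12 of the 12885 peaks, with 3 nearest to Hhex, 3 to Mecom, 2 each to Meis1, Myb and Nfe2, and 0 to Bcl11a. Of the 6 genes, 5 had at least 1 peak, where 29.0% of the 22238 protein-coding genes did.

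SCL (gene symbol Tal1) was immunoprecipitated from the chromatin of wild-type FLK1+ mesoderm cells. They came from day 3.5 embryoid bodies of the mouse embryonic stem cell line J1 (strain recorded as C57Bl/6 X Sv129). The study made 2 ChIP libraries with an in-house SCL rabbit antiserum and 2 input libraries with no antibody. The peak list is a call on the merged libraries, so a peak has 1 value and no replicate error. It holds more peaks than the study counts as bound loci, and since the filter between them was not found, ranks and shares refer to the whole list. All comparisons below are descriptions of this list. No other cell type, time point or genotype was measured with this antiserum in these files, embryoid bodies are a culture model of the embryo, and ChIP does not show whether a bound gene was expressed.

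SCL is a basic helix-loop-helix factor that binds DNA with E proteins at E-boxes and, through LMO2 and LDB1, joins GATA factors in a larger complex. That complex often sits on CTG, the start or end of an E-box, followed about a helical turn away by a GATA site. SCL is required for the first blood cells to form. Among the 6 genes, Hhex is a homeobox gene used in early blood and endothelium, and Meis1 a TALE-class homeobox gene whose protein partners HOX proteins in stem cells. Myb is needed for definitive blood formation, and Mecom encodes the zinc-finger factor EVI1, which maintains stem cells. Nfe2 encodes the tissue-restricted subunit of NF-E2, a bZIP factor of megakaryocytes and red cells. Bcl11a encodes a zinc-finger repressor of fetal globin genes that is also needed for lymphoid cells.

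The summit sequences of the strongest peak of each gene are shown first, so that the motif counts below can be read on them, together with the other Nfe2 peak and a strong peak that lies almost midway between Myb and Hbs1l. Each run is the summit and 50 bp on either side, from the mm9 genome and on the strand of the member gene. The positions are chr15:103082192-103082292 (minus strand) for the internal start site of Nfe2 and chr15:103088951-103089051 (minus strand) for its outer start site. They are chr19:37510210-37510310 (plus strand) for Hhex, chr10:20916527-20916627 (minus strand) for Myb, chr11:19094647-19094747 (minus strand) for Meis1, chr3:29982374-29982474 (minus strand) for Mecom and chr10:20948419-20948519 (minus strand) for the midpoint peak. In both Nfe2 runs capitals mark the composite, which is CTG, then 7 to 9 bases, then GATA, read on either strand. In the other runs capitals mark the GATA motif, which is GATA with an A or a T before it and an A or a G after it, on either strand. The Hhex run holds neither and is all in lower case.

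Nfe2 internal start site: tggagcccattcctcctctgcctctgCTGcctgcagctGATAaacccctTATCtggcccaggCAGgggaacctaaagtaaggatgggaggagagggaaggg

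Nfe2 outer start site: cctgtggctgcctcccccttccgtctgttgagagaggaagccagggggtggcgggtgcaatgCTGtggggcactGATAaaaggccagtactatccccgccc

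Hhex intron: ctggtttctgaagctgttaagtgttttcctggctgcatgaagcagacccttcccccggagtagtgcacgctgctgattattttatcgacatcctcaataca

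Myb upstream: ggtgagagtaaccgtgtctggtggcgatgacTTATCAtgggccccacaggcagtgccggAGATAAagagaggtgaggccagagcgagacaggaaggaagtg

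Meis1 upstream: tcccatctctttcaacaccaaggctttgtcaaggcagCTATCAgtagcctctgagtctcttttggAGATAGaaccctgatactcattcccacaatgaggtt

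Mecom intron: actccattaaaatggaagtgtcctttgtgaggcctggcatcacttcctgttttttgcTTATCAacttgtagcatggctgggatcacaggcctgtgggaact

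Myb and Hbs1l midpoint: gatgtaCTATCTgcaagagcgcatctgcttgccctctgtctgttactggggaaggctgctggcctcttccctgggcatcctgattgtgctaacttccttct

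Nfe2 carried the strongest binding of the 6 genes. The fold enrichment, which is the ChIP fragments stacked at the summit over the local background (each plus 1), was 190.9 at its first peak, 124 bp upstream of an annotated start site inside the gene. The summit pileup there was 1002 fragments (exact Poisson 95% interval 940.9 to 1066.0) over a background of 4.26, which placed the fold between 179.2 and 203.1. This peak ranked 26th by fold among all peaks in the list, and 99.8% of peaks were weaker. The other Nfe2 peak lay 167 bp upstream of the start site at the 5′ end of the gene, with a fold of 119.8 (111.0 to 129.2) from 684 fragments. Its rank was 129. The intervals of these peaks, 6759 bp apart, did not overlap. All intervals cover counting error only. Those of the folds cover that of the ChIP pileup, with the background held fixed.

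Both Nfe2 windows held the composite, each time with 9 bases between CTG and GATA. At the internal start site a pair of composites faced each other on opposite strands, and the E-box of that window, CAGCTG, overlapped one of the GATA motifs, with its middle 14.5 bp from the summit. Nfe2 (ENSMUSG00000058794.6) spans chr15:103078643-103088834 on the minus strand and has 10 annotated start sites. The stretch of genome nearer to its start sites than to those of any other gene was 19.67 kb, the shortest of the 6, so its 2 peaks came to 101.7 per Mb (exact Poisson 95% interval 12.3 to 367.3).

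Hhex had 3 peaks of very unequal strength. The strongest had a fold of 109.9 (101.4 to 118.8) from 627 fragments, ranked 157th, and was 1292 bp wide, wider than 99.6% of all peaks. It lay in an annotated intron of Hhex, 969 bp upstream of the nearest GENCODE start site. The RefSeq start site of Hhex, placed in mm9 by an exact match of its promoter sequence, lies 1898 bp from any GENCODE start site, and the summit was 929 bp downstream of it. The second peak, 75 bp upstream of the GENCODE start site and only 894 bp from the first summit, had a fold of 7.25 (4.87 to 10.4) from 27 fragments. The third, 45142 bp downstream in intergenic sequence, had a fold of 19.5 (15.2 to 24.7) from 66 fragments. The strongest peak thus stood clear of the other two by interval, and the intervals of those 2 did not overlap either.

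Hhex (ENSMUSG00000024986.5) lies at chr19:37507377-37515218 on the plus strand. Neither of its peaks inside the gene held the GATA motif, an E-box or the composite within 50 bp of the summit. The downstream peak held 1 GATA motif, with its middle at −7.5 bp from the summit.

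Myb had 2 peaks, both upstream of its single annotated start site and neither in the gene. The stronger lay 35787 bp upstream, with a fold of 96.6 (88.7 to 105.0) from 551 fragments and rank 234. The weaker lay 26168 bp upstream with a fold of 6.86 (4.57 to 9.94) from 26 fragments and was the weakest of the 12 peaks, with 13.8% of the list weaker. The summits were 9619 bp apart. The strong peak held a pair of GATA motifs on opposite sides of the summit and no composite, whereas the weak one held a composite with 8 bases between CTG and GATA. Myb (ENSMUSG00000019982.7) lies at chr10:20844736-20880790 on the minus strand. The interval between Myb and Hbs1l is known to hold distal enhancers of Myb.

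Meis1 had 2 distant peaks and none near its start sites. The stronger lay 175736 bp upstream, with a fold of 21.0 (16.4 to 26.4) from 71 fragments. The nearer, 136041 bp upstream, had a fold of 7.84 (5.52 to 10.8) from 35 fragments. The nearer one carried a composite with 9 intervening bases centred 0.5 bp from the summit, and the stronger one held a pair of GATA motifs. Meis1 (ENSMUSG00000020160.10) lies at chr11:18780433-18918961 on the minus strand.

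Mecom had 3 peaks of similar and moderate strength, all in introns. The folds were 11.5 (9.13 to 14.4) from 77 fragments, 9.03 (6.19 to 12.8) from 30 and 10.2 (7.15 to 14.1) from 34, and the 3 intervals overlapped. They lay 56921 bp downstream, 34744 bp downstream and 7827 bp upstream of the nearest of the 15 annotated start sites. Relative to the nearest RefSeq start site the distances were −70298, −92475 and −232948 bp, all upstream. None held the composite. The strongest carried 1 GATA motif, the second an E-box and no GATA motif, and the third 2 GATA motifs and an E-box. Mecom (ENSMUSG00000027684.9) spans chr3:29850221-30446930 on the minus strand.

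Bcl11a had no peak in the list. Its closest peak lay 61222 bp from a start site, had a fold of 7.07, and was nearer by 3002 bp to A830031A19Rik. The stretch nearest to the Bcl11a start sites was the longest of the 6, 804.7 kb, and 0 peaks in it allows up to 4.58 peaks per Mb (exact Poisson 95% interval), where the whole genome had 5.04. With noncoding start sites added the stretch was 49.4 kb and the bound 74.7, so no shortfall remained. A region without a peak had no call at the threshold of the list, which does not show that SCL was absent. Bcl11a (ENSMUSG00000000861.9) lies at chr11:23978056-24074123 on the plus strand.

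**Figure D1:**
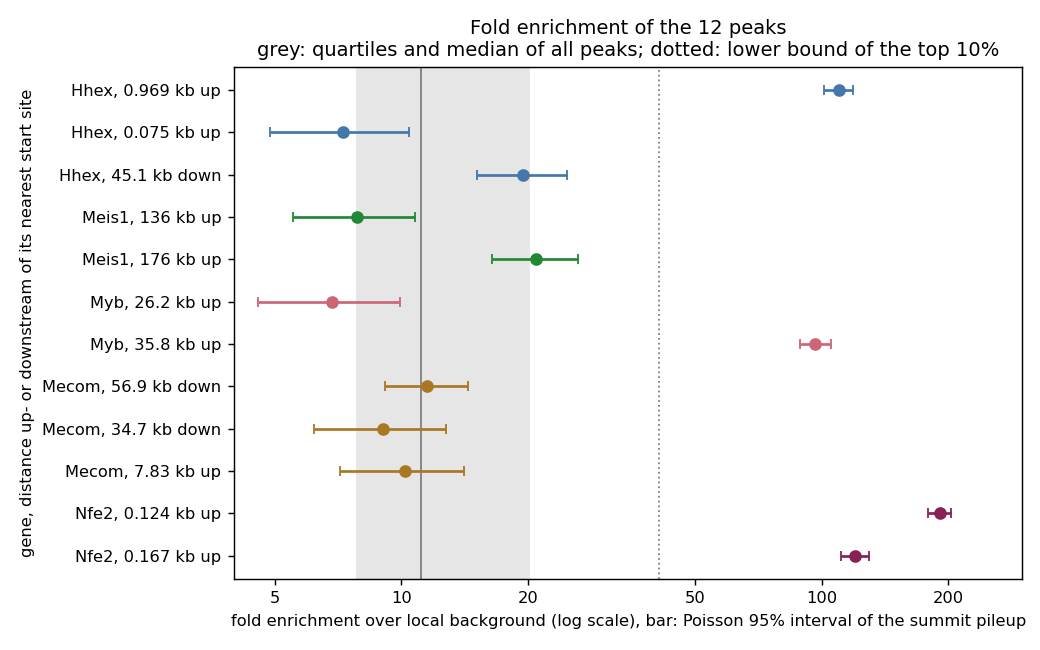
Fold enrichment of the 12 peaks on a log axis, 1 row per peak, labelled with its distance up- or downstream of the nearest start site of its gene. Points are the deposited folds and bars the Poisson 95% interval of the summit pileup. The band holds the quartiles of all peaks, 7.84 and 20.1, and the solid line their median, 11.1. Both Nfe2 peaks and 1 peak each of Hhex and Myb lie beyond the dotted line at 40.9, and the other 8 end at 21.0.

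The 12 folds fell into separate ranges, with 8 peaks between 6.86 and 21.0 and 4 between 96.6 and 190.9. Those 4 peaks were in the top 10% of the list by fold (at least 40.9), a class fixed to hold 10% of all peaks. They were 33.3% of the member peaks (Wilson 95% interval 13.8 to 60.9%). Of the 6 genes, 3 had such a peak, where 4.96% of protein-coding genes did. The median fold of the 12 was 15.5 and that of all other peaks 11.1, a difference of 4.38. That difference was small beside the spread of the 12, since the 95% order-statistic interval of their median ran from 7.84 to 109.9. Without the Nfe2 peaks it was −0.28, so its direction rested on this gene, and without the Hhex peaks it was 0.39.

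The background under each peak was as follows. The 4 strongest had backgrounds of 4.26 to 4.72 fragments, against a median of 3.67 over all peaks. The lowest background in the list, 2.43 (within 0.01), was shared by 14.8% of all peaks and by 4 of the other 8 member peaks, whose folds ended at 21.0. For these weaker peaks the pileups were 26 to 77 fragments, where the median over all peaks was 53.

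**Figure D2:**
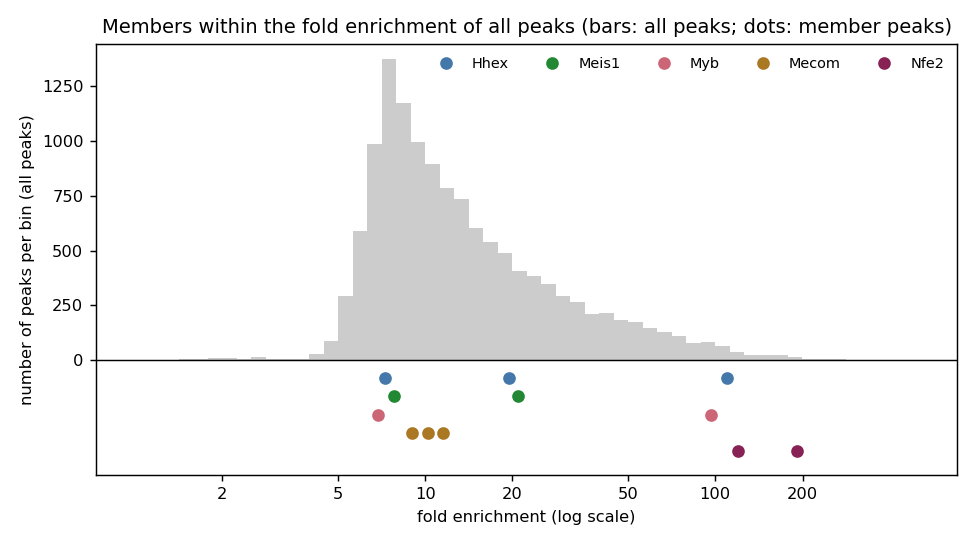
Distribution of fold enrichment (log axis) over all 12885 peaks as grey bars, in number of peaks per bin, with the member peaks as dots below, 1 row of dots per gene. The 3 Mecom dots sit between 9.03 and 11.5, to the right of the highest bar and near the median of 11.1, and both Nfe2 dots sit in its upper tail at 119.8 and 190.9.

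Binding at start sites was seen at 2 of the genes. Of the 12 peaks, 4 lay within 1 kb of a start site, namely both Nfe2 peaks and 2 of the Hhex peaks (33.3%, Wilson 95% interval 13.8 to 60.9%), where 7.59% of all peaks did. The remaining 8 lay between 7827 and 175736 bp away. Of the 4 peaks within 1 kb, 3 were in the top 10% by fold, and of the 8 farther ones 1 was. This split was not taken over all peaks, so no link between distance and strength is drawn from it. The Hhex peak at 75 bp had a fold of 7.25, and the Myb peak 35787 bp away had 96.6. By the RefSeq start site the Hhex peak of fold 7.25 lay 1823 bp away and would leave the class. No RefSeq start site was at hand for Nfe2, so its peaks could not be checked in this way.

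Peaks per length of genome were counted next. The stretches nearest to the 6 genes added up to 2.12 Mb and held 5.67 peaks per Mb (exact Poisson 95% interval 2.93 to 9.90), and the genome held 5.04. The value depended on the stretches counted. It was 9.14 without Bcl11a, whose long stretch held 0 peaks, and 12.3 (5.9 to 22.6) with noncoding start sites added. That interval lies above the genome-wide value, which the interval with protein-coding start sites holds. The density of all protein-coding genes with noncoding start sites added was not taken, so the 12.3 has no like value beside it. Among the single genes the value ran from 0 for Bcl11a over 4.34 for Meis1, 4.87 for Mecom and 15.7 for Myb to 33.7 for Hhex and 101.7 for Nfe2. Of these, only the intervals of Hhex (6.96 to 98.6) and Nfe2 lay above the genome-wide value, also with noncoding start sites, and only that of Bcl11a below it, which those start sites undid. The share of all protein-coding genes with an interval above that value was not taken. With 2 or 3 peaks a gene, the intervals of neighbours in this order overlapped.

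The nearest-start-site rule left out much of the binding around these genes. A further 15 peaks lay within 100 kb of a start site of a member or inside its body but nearest to another gene, and 6 of these were in the top 10%. Together with the 12 this gave 27 peaks with a median fold of 19.5, of which 10 (37.0%) were in the top 10%. Counted in this way, 5 of the 6 genes, all but Bcl11a, had a peak of the top 10%, where 13.2% of protein-coding genes did. Such a zone grows with gene length and the spread of start sites, and the comparison made no allowance for this. For 5 of the 6 genes, all but Nfe2, the strongest such peak was nearest to another gene. Of all protein-coding genes with any peak in such a zone, 70.1% shared this feature, so it does not set these genes apart.

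The strongest of these peaks lay between Myb and Hbs1l, 67679 bp upstream of Myb and 67316 bp from the start of Hbs1l, so that 363 bp decided its gene. Its fold was 157.2 (147.5 to 167.4) from 980 fragments, rank 60, above the interval of the stronger Myb peak. In the window printed above it had a GATA motif and no composite. On the other side of Myb, 2 peaks with folds of 6.33 and 6.47 were nearest to Ahi1 and lay in its introns.

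Downstream of Hhex, 3 intergenic peaks went to Exoc6. The first had a fold of 136.5 (124.9 to 148.9) from 506 fragments, rank 94, and lay 57452 bp from the Hhex start site and 56227 bp from that of Exoc6, 1225 bp closer. The others, at 80869 and 84827 bp, had folds of 20.8 and 18.6. The first was 12310 bp from the third Hhex peak.

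Meis1 itself held 5 peaks in its introns, 38041 to 86885 bp downstream of its nearest start site. All 5 were nearest to Gm16140, a gene model whose start site also lies within Meis1 and was 2874 bp closer to each of them. Their folds were 49.2 (42.7 to 56.5), 46.3 (41.7 to 51.4), 35.8 (29.8 to 42.7), 13.2 (10.01 to 17.2) and 8.32 (6.44 to 10.6), and the first 2 were in the top 10%. The 3 strongest each had a higher fold than either Meis1 member peak, and their intervals did not overlap those of the member peaks. Of the 5, 3 had a GATA motif and none a composite.

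Mecom held another intronic peak, of fold 118.1 (109.4 to 127.3) from 674 fragments, rank 134, 116211 bp from a Mecom start site and 84589 bp from that of Gm10258. Its interval lay above those of the 3 Mecom member peaks. This window had neither a GATA motif nor a composite. A peak of fold 7.42 beyond the 5′ end of Mecom was 747 bp from the start site of Mynn. Upstream of Nfe2, a peak of fold 85.7 (78.1 to 93.8) lay in an intron of Zfp385a, 475 bp from a start site of that gene, and held a composite with 7 intervening bases.

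**Figure D3:**
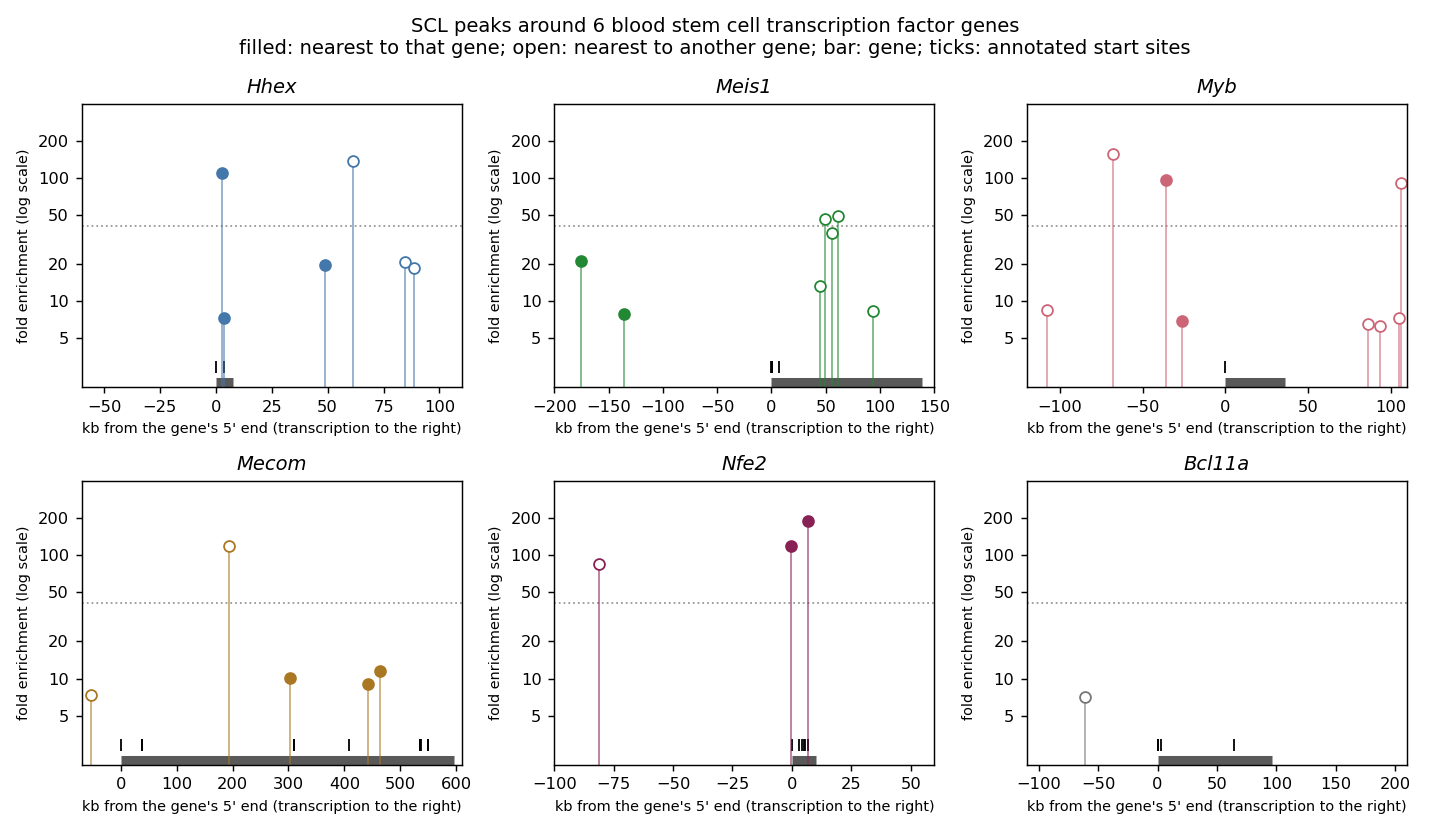
Peaks around each gene, with the distance from the 5′ end of the gene in kb on the x axis (transcription to the right) and fold enrichment on a log y axis. Filled points are peaks nearest to that gene and open points peaks nearest to another gene, the bar is the gene, ticks are annotated start sites and the dotted line is the lower bound of the top 10%. Open points lie above that line at Hhex (136.5), Meis1 (49.2), Myb (157.2), Mecom (118.1) and Nfe2 (85.7), while Bcl11a shows a single open point at 7.07.

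Motifs of the SCL complex were found in most but not all member windows. The composite was in 4 of the 12 windows (33.3%, Wilson 95% interval 13.8 to 60.9%), namely both Nfe2 peaks, the weaker Myb peak and the nearer Meis1 peak, and in 32.9% of all peaks. The GATA motif was in 8 of the 12 (66.7%, 39.1 to 86.2%) and in 73.2% of all peaks. Over all peaks, 9 intervening bases were the commonest spacing of the composite, in 18.3% of peaks, against 12.3% for 8 and 3.60% for 7. In the members the spacing was 9 at Nfe2 and Meis1 and 8 at Myb. In the top 10% of the list, 49.5% of peaks held a composite, as did 2 of the 4 member peaks in that class. The composite and the GATA motif are not independent counts, since the GATA of a composite can be part of the motif.

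An E-box (CANNTG) was in 3 of the 12 windows (25%, 8.89 to 53.2%) and in 52.6% of all peaks. The core of the ETS motif, AGGAA, was in 10 of the 12 (83.3%, 55.2 to 95.3%) and in 51.9% of all peaks. Both Meis1 peaks lacked it. The RUNX core, TGTGGT, was in 0 of the 12 (Wilson upper bound 24.2%) and in 9.56% of all peaks. All motifs were read on both strands. A match is a stretch of letters and not evidence of binding by the factor named, and ETS factors and RUNX1 were not measured in these files.

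**Figure D4:**
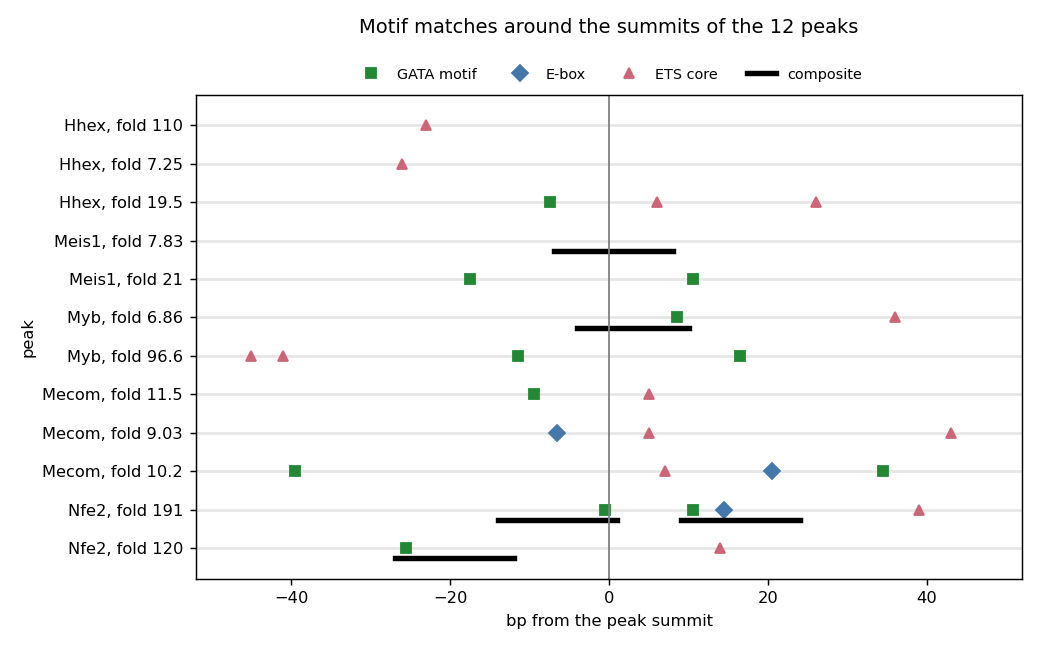
Positions of motif matches in the 12 windows, in bp from the summit, with 1 row per peak labelled by gene and fold. Squares are GATA motifs, diamonds E-boxes, triangles the ETS core, and black lines the composite. A composite spans the summit in the weaker Myb peak, the nearer Meis1 peak and the Nfe2 peak of fold 190.9, and no GATA motif, E-box or composite appears in the rows of the Hhex peaks of fold 109.9 and 7.25.

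Relatives by protein family of all the genes but Hhex, 9 genes in all, were compared. Of these, 5 had a peak and together they had 14. Nfe2l2, a broadly expressed bZIP relative of Nfe2, had 4 peaks with a strongest fold of 206.7. No interval is given for this fold, so it is not ranked against the Nfe2 peaks. Bcl11b, a T-cell relative of Bcl11a, had 4 peaks up to 17.0, where Bcl11a had 0. Prdm16, a relative of Mecom, had 3 up to 25.2, Mybl2 had 2 up to 14.1 and Meis2 had 1 at 10.1. Meis3, Mybl1, Nfe2l1 and Nfe2l3 had 0. The summed density of the relatives was 8.0 peaks per Mb (4.37 to 13.4), with an interval that overlapped that of the 6 genes. With noncoding start sites added it was 6.09 (2.23 to 13.2) from 6 peaks, below the 12.3 of the 6 genes, so the order of the lists turned while the intervals still overlapped.

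Other transcription factors of blood stem cells were compared in the same way. Of 24 listed, 22 were found under that symbol as protein-coding genes, 17 of the 22 (77.3%) had a peak and 14 (63.6%) had a peak of the top 10%. They had 105 peaks over 3.89 Mb, which was 27 per Mb (22.1 to 32.7), and this interval lay above that of the 6 genes. With noncoding start sites added, the values were 27.2 (22.05 to 33.2) and 12.3 (5.9 to 22.6), and the intervals overlapped. By nearest start site, Runx1 had 16 peaks and Cbfa2t3, which encodes the co-repressor ETO2, had 13, against at most 3 for any of the 6. Counted in the gene body and 10 kb on either side, Runx1 had 5 and Cbfa2t3 10, where Meis1 had 5 and Mecom 4. Runx1 encodes a DNA-binding factor required for definitive blood, and its strongest peak had a fold of 298.0. By nearest start site, the median was 3 peaks a gene in this list, 2 in the 6 genes and 0 over all protein-coding genes. Both lists were drawn up with earlier results of these data known.

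Which gene a peak belonged to was an assumption of the rule. Under 5 other rules of assignment the total ran from 10 to 13, and it was 11 with peaks within 500 bp joined. It was 8 with a fold of at least 10 and 7 with the stricter q threshold, which remove peaks and do not reassign them. Nfe2 had 2 peaks and Bcl11a 0 under all 8 alternatives. Meis1 had 0 peaks when noncoding start sites were added, since 4933406G16Rik then took both, 0 when peaks had to lie within 100 kb, and 5 when peaks in the body and 10 kb around were counted. Myb had 0 under that rule, as its peaks lie 26168 and 35787 bp from the gene, and 4 when each gene had a single start site. Mecom had 0 with a single start site, when Gm10258 took its 3 peaks.

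**Figure D5:**
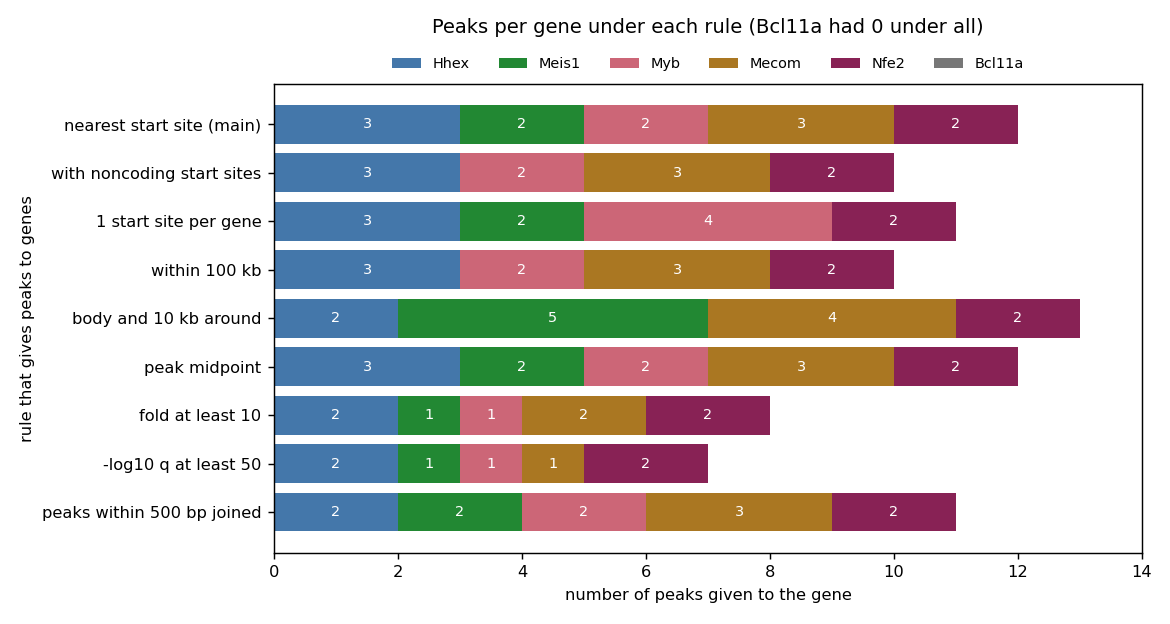
Number of peaks given to each gene (stacked bars, x axis in peaks) under the rule used here and 8 alternatives of assignment or threshold (y axis). The Nfe2 segment is 2 in every row, the Meis1 segment ranges from absent to 5, and the total from 7 to 13.

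The study names genes that changed expression without SCL and were bound by it as activated or repressed. Myb, Mecom and Nfe2 are on its activated list, and Hhex, Meis1 and Bcl11a on neither list. These lists were selected with these same ChIP libraries and are not independent of the peaks. They were read by name only, and no share was taken from them.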

How the data were processed

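SCL ChIP and input libraries of day 3.5 FLK1+ cells were analysed from the deposited peak list. The authors aligned reads to mm9 with Bowtie 1.1.2, removed duplicates, called peaks with MACS2 2.0.10 and set the list with the irreproducible discovery rate on merged replicates. The fold enrichment of each peak is the authors' ratio. The −log10 p and −log10 q are the authors' MACS2 values, and −log10 p was used with the fold to solve for whole summit pileups, which matched within 0.001 in 99.9% of peaks. The deposited score equalled 10 times −log10 p, truncated, and was not used. Library depth is not given in the sources used here, and the pileup is the depth behind each value.

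Summits were given to the nearest of the protein-coding start sites of GENCODE vM1 (69976 positions, NCBIM37, the mm9 build), and 2 of the 12885 summits were equally near to more than 1 gene. The members and the gene lists were chosen with earlier results of these data known. All 6 genes and all 12 peaks are named. From the list of other blood stem cell factors, the genes with the most peaks are named, except for 1 that is not reported here. The RefSeq start sites (promoter table of build GRCm38.p6) were matched by sequence, and Nfe2 had none there. Intervals are exact Poisson for pileups and densities, Wilson for shares (95%), and the scripts were tested on simulated data. Python 3.11.15, numpy 2.4.6, pandas 2.3.3, scipy 1.17.1 and samtools 1.23.1 were used. No statistical test was run, since the list has no replicate values. Alternatives changed the assignment rule, the peak threshold, the motif window and spacing, and the genes included.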

Additional observations from a re-analysis of the deposited data

How the results depend on the processing

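No paired analysis was possible because values exist only for the merged libraries, and for the same reason no replicate could be left out in turn. The total of 12 member peaks was 7 when −log10 q had to reach 50. The difference in median fold of 4.38 was −0.28 without Nfe2, 0.39 without Hhex, 9.83 without Mecom and 72.7 among peaks whose −log10 q reached 50, and it stayed above 0 under all alternatives but the one without Nfe2. The density of 5.67 peaks per Mb was 12.3 once lincRNA and processed-transcript start sites were added, because the stretches nearest to the genes then shrank to 0.813 Mb while the peaks went from 12 to 10. Each other setting kept the total, the density and the share with the composite within 1.5 times or within their counting intervals. The share with the composite ran from 20% without Nfe2 to 58.3% with a spacing of 6 to 10 bp, which 40.7% of all peaks met. Of 48 counts for single genes under other rules, 31 equalled the count reported. The strongest peak by −log10 p was the strongest by fold in 5 of 5 genes. Comparing the median with the neighbouring peaks included (8.37) and taking the density of the other gene lists and the Bcl11a bound with noncoding start sites were added after the data were seen. Depth limits the weakest peaks, where 26 fragments give an interval of 17.0 to 38.1.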
